A study of Homo sapiens with 16 samples.

Results

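Beta-catenin (gene CTNNB1) and the genes of its destruction complex were followed across 4 groups of SW480 cells, an established human colorectal cancer line whose own APC gene encodes a truncated protein. All probe sets annotated to exactly one of 10 gene symbols were taken: CTNNB1, the scaffold genes APC, APC2, AXIN1 and AMER1, the kinase genes CSNK1A1, GSK3A and GSK3B, and the ubiquitin ligase genes BTRC and FBXW11. This gave 39 of the 54675 probe sets on the Affymetrix U133 Plus 2.0 array: 3 for CTNNB1, 5 for APC, 2 for APC2, 1 for AXIN1, 1 for AMER1, 13 for CSNK1A1, 2 for GSK3A, 5 for GSK3B, 5 for BTRC and 2 for FBXW11. Levels are log2 values, each made from many short probes, so a log2 difference of 1 is a doubling of signal.

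Each group held 4 arrays, lettered A to D. siTAZ cells carried an empty vector and received an siRNA against TAZ, the product of WWTR1 and a transcriptional partner of the TEAD factors. The sibcat cells carried the same empty vector and received an siRNA against beta-catenin. APC cells stably carried a vector with wild-type APC and received a control siRNA. Control cells, labelled siGFP, carried the empty vector and received the control siRNA, which targets GFP. The parental line, with its truncated APC and its resident beta-catenin activity, was common to all 4 groups. Each target had 1 siRNA condition, and the labels do not say whether the APC cells were 1 clone. Nor do they say that the biological replicates were grown as separate cultures, so a p-value here reflects the spread among the given samples, which could be technical.

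In cells without a Wnt signal, the scaffolds APC and Axin bring beta-catenin to casein kinase 1 alpha and then to GSK3, which phosphorylate it in turn. The phosphorylated protein is bound by the F-box proteins beta-TrCP1 (BTRC) and beta-TrCP2 (FBXW11), ubiquitinated and degraded. Truncated APC, the usual first lesion of colorectal tumours, leaves beta-catenin stable and active with TCF/LEF factors in the nucleus. All of this acts on protein, and the arrays measured RNA only.

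A probe set was called changed when its adjusted p in the limma fit, with Benjamini-Hochberg adjustment over all probe sets, was under 0.05. All comparisons with control share the same 4 control arrays. The siRNA targets were checked first. WWTR1, targeted in siTAZ cells, lay between 6.77 and 7.06 there, against 10.13 to 10.39 in control cells, a log2 difference of -3.37 (adjusted p = 1.75e-14). WWTR1 was 0.70 higher in sibcat and 0.73 higher in APC cells, and its paralog YAP1 fell by 1.33 (sibcat) and by 0.76 (APC), with -0.17 in siTAZ cells (adjusted p = 0.215). AXIN2, an Axin scaffold and a well-known target of beta-catenin, fell by 1.66 in sibcat cells and by 1.36 in APC cells, while its difference in siTAZ cells was 0.10 (adjusted p = 0.422). The epithelial markers EPCAM, KRT8 and KRT18 were well above the median probe set level of 5.10 in every group, while LGALS4, a marker of mature colon epithelium, was below it. The summed signal of 9 epithelial markers, in log2, ranged from 15.12 to 15.17 in siTAZ, 15.25 to 15.27 in sibcat, 15.00 to 15.06 in APC and 15.25 to 15.30 in control cells. The siTAZ and APC sums lay below the control range, and their part in the results was not tested. None of 8 fibroblast and endothelial markers was called in a comparison with control, and their summed signal ranged, in log2, from 7.78 to 7.82 in siTAZ, 7.78 to 7.97 in sibcat, 7.80 to 7.90 in APC and 7.73 to 8.04 in control cells. Of 4 leukocyte markers only CD14 was called, higher in all 3 groups, by 0.60, 1.63 and 0.48, with PTPRC, the common leukocyte antigen, below the median level. Their summed signal ranged from 6.64 to 6.81 in siTAZ, 7.10 to 7.20 in sibcat, 6.67 to 6.77 in APC and 6.47 to 6.81 in control cells, and its part in the results was not tested.

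In siTAZ cells 5 of the 39 probe sets (12.8%) were called, 3 higher and 2 lower, where 20.3% of all probe sets were called, 10.5% higher and 9.77% lower. The calls fell in CTNNB1, CSNK1A1, BTRC and FBXW11. In sibcat cells 16 (41.0%) were called, 4 higher and 12 lower, where 25.6% of all probe sets were called, 13.4% higher and 12.2% lower. With arrays centred on 55 normalisation probe sets instead, all sibcat differences shifted by 0.16. The split was then 10 higher and 10 lower in sibcat cells, and 3 and 1 in siTAZ cells. The share of all probe sets called with this centring is not given, so these 2 splits stand without a background. The 12 lower were the 3 CTNNB1 probe sets, 5 for CSNK1A1, 2 for APC and 2 for GSK3B. In APC cells 8 (20.5%) were called, 3 higher and 5 lower, where 24.0% of all probe sets were called, 12.7% higher and 11.3% lower. Members lay high on the array: 29 had a mean of at least 5.10, and among these 5, 15 and 7 were called in siTAZ, sibcat and APC cells. Among all probe sets of that level 35.4% were called in siTAZ, 43.7% in sibcat and 38.7% in APC cells. The median log2 difference over the 39 was -0.03, -0.11 and 0, beside 0.01, 0.00 and 0.02 over all probe sets. The sibcat count includes the 3 probe sets of the siRNA target itself. The members were not tested as a set, and the account below is of single genes. In the bulk RNA of these cultures, less RNA per cell and fewer cells with the RNA cannot be told apart, and quantile normalisation hides a change in total RNA.

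**Figure D1:**
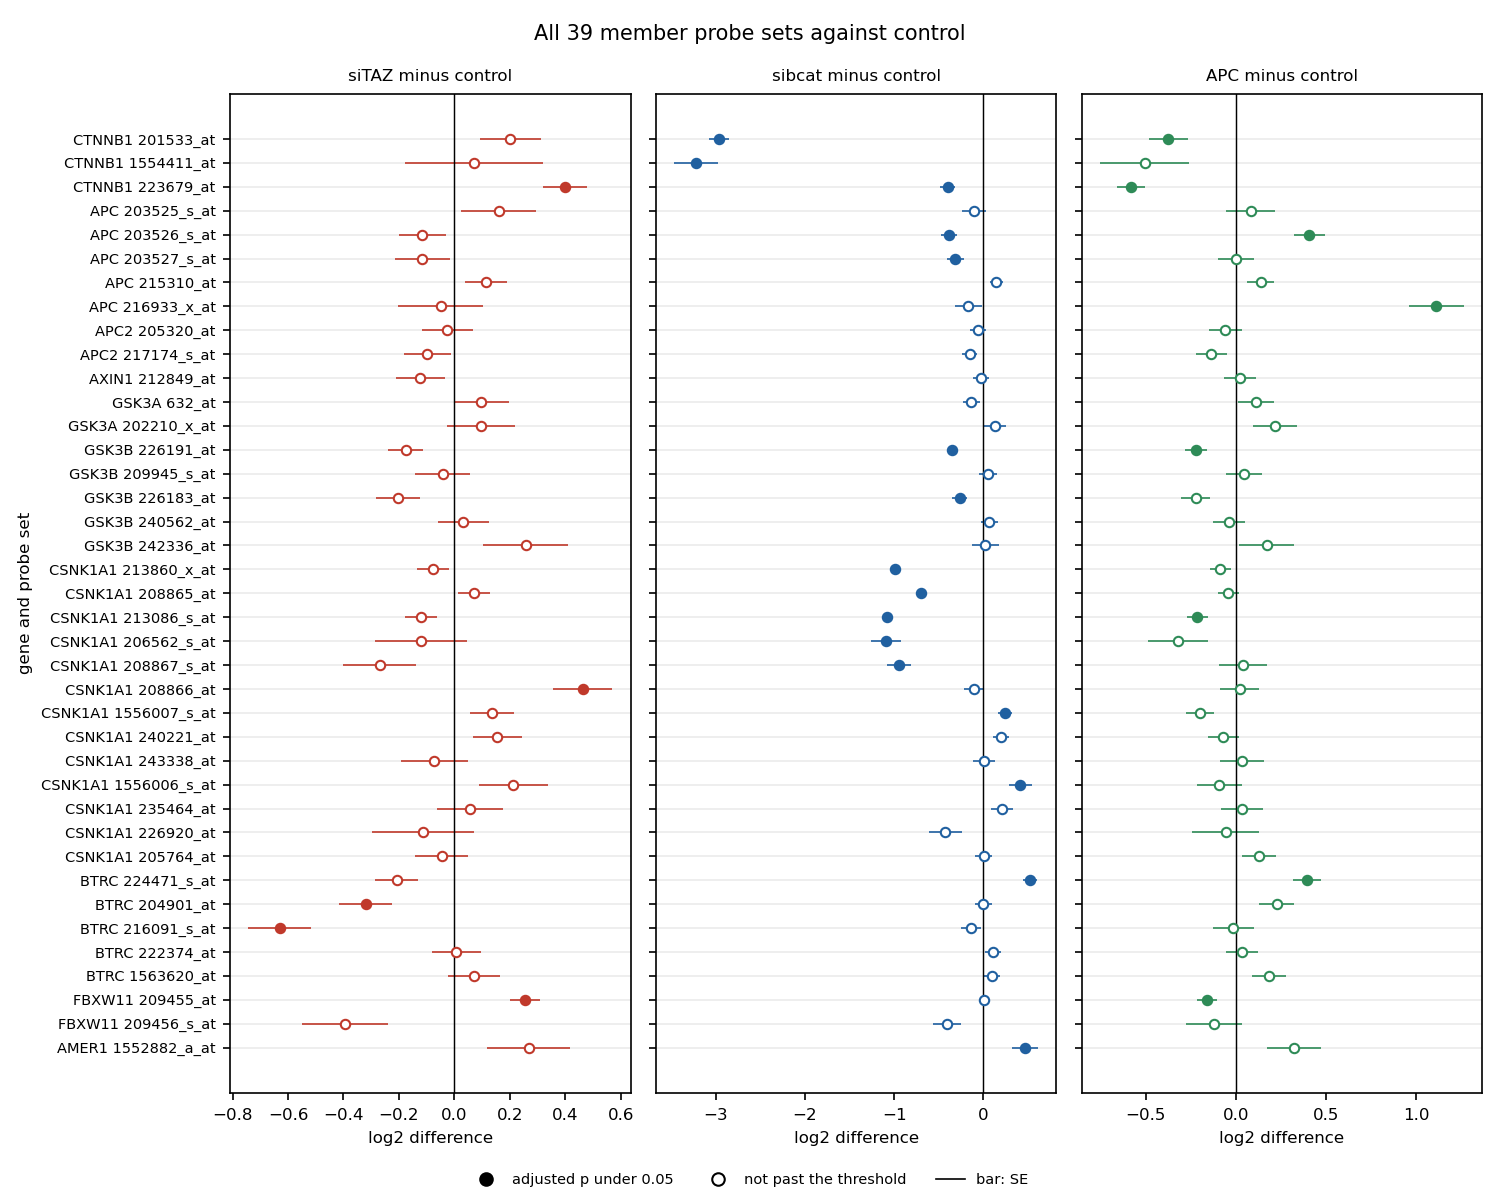
Log2 difference from control (x axis, in log2 units) of each of the 39 probe sets, listed by gene down the page, in siTAZ, sibcat and APC cells; bars are the SE, the x axes differ between panels, and filled points passed an adjusted p under 0.05. CTNNB1 201533_at and 1554411_at in sibcat cells, at -2.96 and -3.22, stand out from the rest. Next in that panel are 5 CSNK1A1 probe sets between -0.69 and -1.09, and in the APC panel APC 216933_x_at lies at 1.11.

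CTNNB1 RNA fell in sibcat cells on all 3 of its probe sets, fell in APC cells on 2 of them, and rose in siTAZ cells on 1. Its brightest probe set, 201533_at, stood at 13.35, 13.18, 13.39 and 13.39 in siTAZ cells, 9.99, 9.94, 10.43 and 10.30 in sibcat cells, 12.59, 12.69, 12.84 and 12.88 in APC cells and 13.00, 12.97, 13.27 and 13.26 in control cells. The sibcat arrays lay far below all others, the APC arrays lay below every control array, and siTAZ and control arrays overlapped. In sibcat cells the level fell by 2.96 (SE 0.11, adjusted p = 3.3e-12), to 12.9% of control, and in APC cells it fell by 0.38 (SE 0.11, adjusted p = 0.0184), to 77.1% of control. The call in APC cells was lost without control replicate C, control replicate D or APC replicate A, with adjusted p between 0.0611 and 0.0643. In siTAZ cells the difference was 0.20 (SE 0.11, adjusted p = 0.25), and with the replicate letter as a block it was the same 0.20 with an adjusted p of 0.0393. In order of level, siTAZ and control were neighbours without a called difference, APC lay below both, and sibcat was last. siTAZ exceeded APC cells by 0.58 (adjusted p = 4.46e-04).

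Probe set 1554411_at stood at 10.20, 10.07, 10.68 and 10.73 in siTAZ cells, 6.96, 6.52, 7.57 and 7.48 in sibcat cells, 9.67, 9.51, 10.15 and 10.04 in APC cells and 10.02, 9.89, 10.70 and 10.79 in control cells. Again the sibcat arrays lay apart, while the other groups overlapped. In each of the 4 groups replicates A and B were below C and D. The level fell by 3.22 in sibcat cells (SE 0.25, adjusted p = 2.69e-08), to 10.8% of control. The difference was 0.07 in siTAZ cells (adjusted p = 0.906, or 0.63 with adjusted p = 0.0402 once the ACTB 3' minus 5' signal, which tracks RNA quality, entered the fit) and -0.51 in APC cells (adjusted p = 0.166). With the replicate block, the -0.51 in APC cells had an adjusted p of 2.08e-04.

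The third probe set, 223679_at, gave a different picture of the same gene. It stood at 8.99, 9.01, 8.92 and 8.98 in siTAZ cells, 8.17, 8.14, 8.21 and 8.18 in sibcat cells, 8.06, 7.75, 8.20 and 7.97 in APC cells and 8.52, 8.48, 8.63 and 8.68 in control cells. Every siTAZ array was above every control array, and every sibcat and APC array was below them. It rose by 0.40 in siTAZ cells (SE 0.08, adjusted p = 0.00126). It fell by 0.40 with the siRNA against beta-catenin (adjusted p = 8.39e-04) and by 0.58 with the APC vector (adjusted p = 2.27e-05). That left 75.7% of control in sibcat cells, against the 12.9% and 10.8% of the other probe sets, and 66.8% in APC cells. APC cells differed from sibcat cells by -0.18 (adjusted p = 0.101), so these neighbours in level were not separated beyond their spread, though with arrays centred on normalisation probe sets the difference was -0.36 (adjusted p = 8.58e-04). With replicates C and D only, the siTAZ difference was 0.29 (adjusted p = 0.0621).

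The disagreement between the probe sets was measured within each array as 201533_at minus 223679_at. The pair was chosen after the values were seen, so no test of it is used here. That distance was 4.35 ± 0.13 in siTAZ cells, 1.99 ± 0.21 in sibcat cells, 4.76 ± 0.20 in APC cells and 4.55 ± 0.08 in control cells (SD, n = 4 each). It was smaller in every sibcat and every siTAZ array than in any control array, and the APC arrays overlapped control. Which part of the CTNNB1 transcript each probe set reads was not analysed here.

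**Figure D2:**
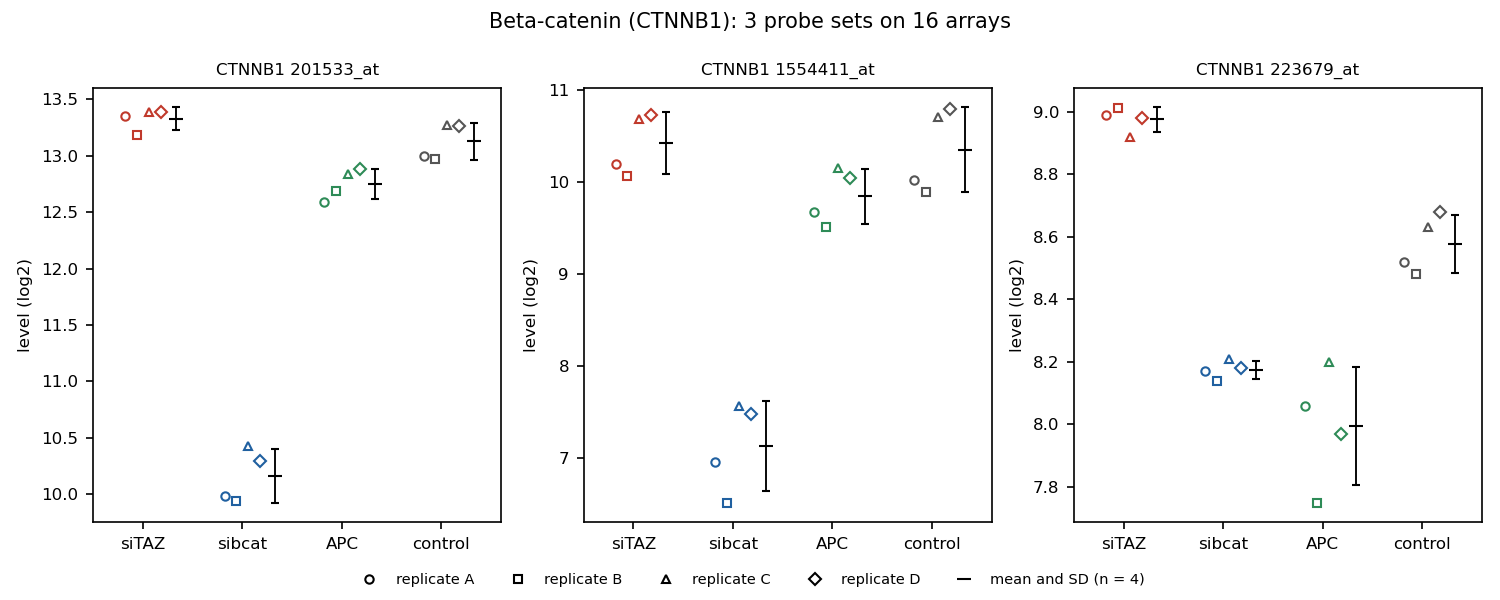
Log2 level of the 3 CTNNB1 probe sets on each of the 16 arrays, by group, with marker shape for the replicate letter and a bar for the mean and SD of 4 arrays; each panel has its own level axis. The sibcat arrays drop by 2.96 and 3.22 in the first and second panels, but by 0.40 in the third, where all siTAZ arrays lie above the control arrays.

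Among the scaffolds, APC itself was read by 5 probe sets that did not move together. The brightest, 203525_s_at, stood at 8.30, 8.32, 8.48 and 8.43 in siTAZ cells, 7.96, 7.94, 8.31 and 8.25 in sibcat cells, 8.33, 8.05, 8.43 and 8.41 in APC cells and 8.27, 7.75, 8.45 and 8.42 in control cells. The 4 groups overlapped, and the APC cells, which carry an APC vector, differed from control by 0.08 (SE 0.14, adjusted p = 0.743). Control replicate B was the lowest of the 16 arrays.

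The other APC probe sets are named after their values were seen. 203526_s_at stood at 5.75, 6.22, 6.15 and 6.00 in siTAZ cells, 5.68, 5.73, 5.78 and 5.85 in sibcat cells, 6.55, 6.45, 6.64 and 6.56 in APC cells and 6.20, 6.10, 6.07 and 6.21 in control cells. All APC arrays were the highest and all sibcat arrays were below control. It rose by 0.41 in APC cells (SE 0.09, adjusted p = 0.00183) and in sibcat cells it fell by 0.39 (adjusted p = 0.00251), and APC exceeded sibcat cells by 0.79 (adjusted p = 1.15e-06). 216933_x_at, whose suffix marks probes that may bind other transcripts too, stood at 3.64, 4.20, 3.94 and 3.87 in siTAZ cells, 3.60, 3.83, 3.77 and 3.98 in sibcat cells, 5.51, 5.02, 5.20 and 4.56 in APC cells and 3.98, 3.97, 3.95 and 3.95 in control cells. Every APC array was above all the others, a rise of 1.11 (SE 0.15, adjusted p = 2.70e-05), or 2.16-fold, with both group means below 5.10, where a signal may be largely background. 203527_s_at fell by 0.32 in sibcat cells (adjusted p = 0.0238), a call lost without control replicate D (adjusted p = 0.0919) or sibcat replicate B (adjusted p = 0.0923), and differed by 0.00 in APC cells. 215310_at was called in no comparison. Whether a probe set reads the introduced APC, the resident truncated transcript or both was not tested.

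The scaffold paralogs and partners showed little. AXIN1, the core scaffold that binds beta-catenin, APC, GSK3 and casein kinase 1 alpha, stood at 6.31, 6.18, 6.04 and 6.20 in siTAZ cells, 6.30, 6.42, 6.18 and 6.22 in sibcat cells, 6.43, 6.30, 6.18 and 6.40 in APC cells and 6.23, 6.53, 6.30 and 6.16 in control cells. The groups overlapped, with differences of -0.12, -0.03 and 0.02 (adjusted p = 0.416, 0.895 and 0.9). Its SE was 0.09, and a call takes a difference of several SE, so a change well above 0.09 could be missed by these arrays. APC2, an APC paralog best known from the nervous system, stood on 205320_at at 5.83, 5.76, 5.68 and 5.50 in siTAZ cells, 5.67, 5.73, 5.52 and 5.72 in sibcat cells, 5.64, 5.59, 5.87 and 5.53 in APC cells and 5.70, 5.91, 5.60 and 5.66 in control cells. Its groups overlapped too, and neither of its 2 probe sets was called in any of the 6 comparisons.

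AMER1, which recruits APC to the plasma membrane, was read by 1 dim probe set, 1552882_a_at. It stood at 4.56, 4.20, 4.54 and 4.38 in siTAZ cells, 4.38, 4.72, 4.66 and 4.71 in sibcat cells, 4.31, 4.56, 4.61 and 4.42 in APC cells and 4.29, 4.48, 3.60 and 4.24 in control cells. It was higher by 0.46 in sibcat cells (SE 0.15, adjusted p = 0.0274), but control replicate C was far below its group and the groups overlapped. Without control replicate C the difference was 0.28 (adjusted p = 0.0813), and without sibcat replicate B, C or D the adjusted p was between 0.0601 and 0.0733.

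**Figure D3:**
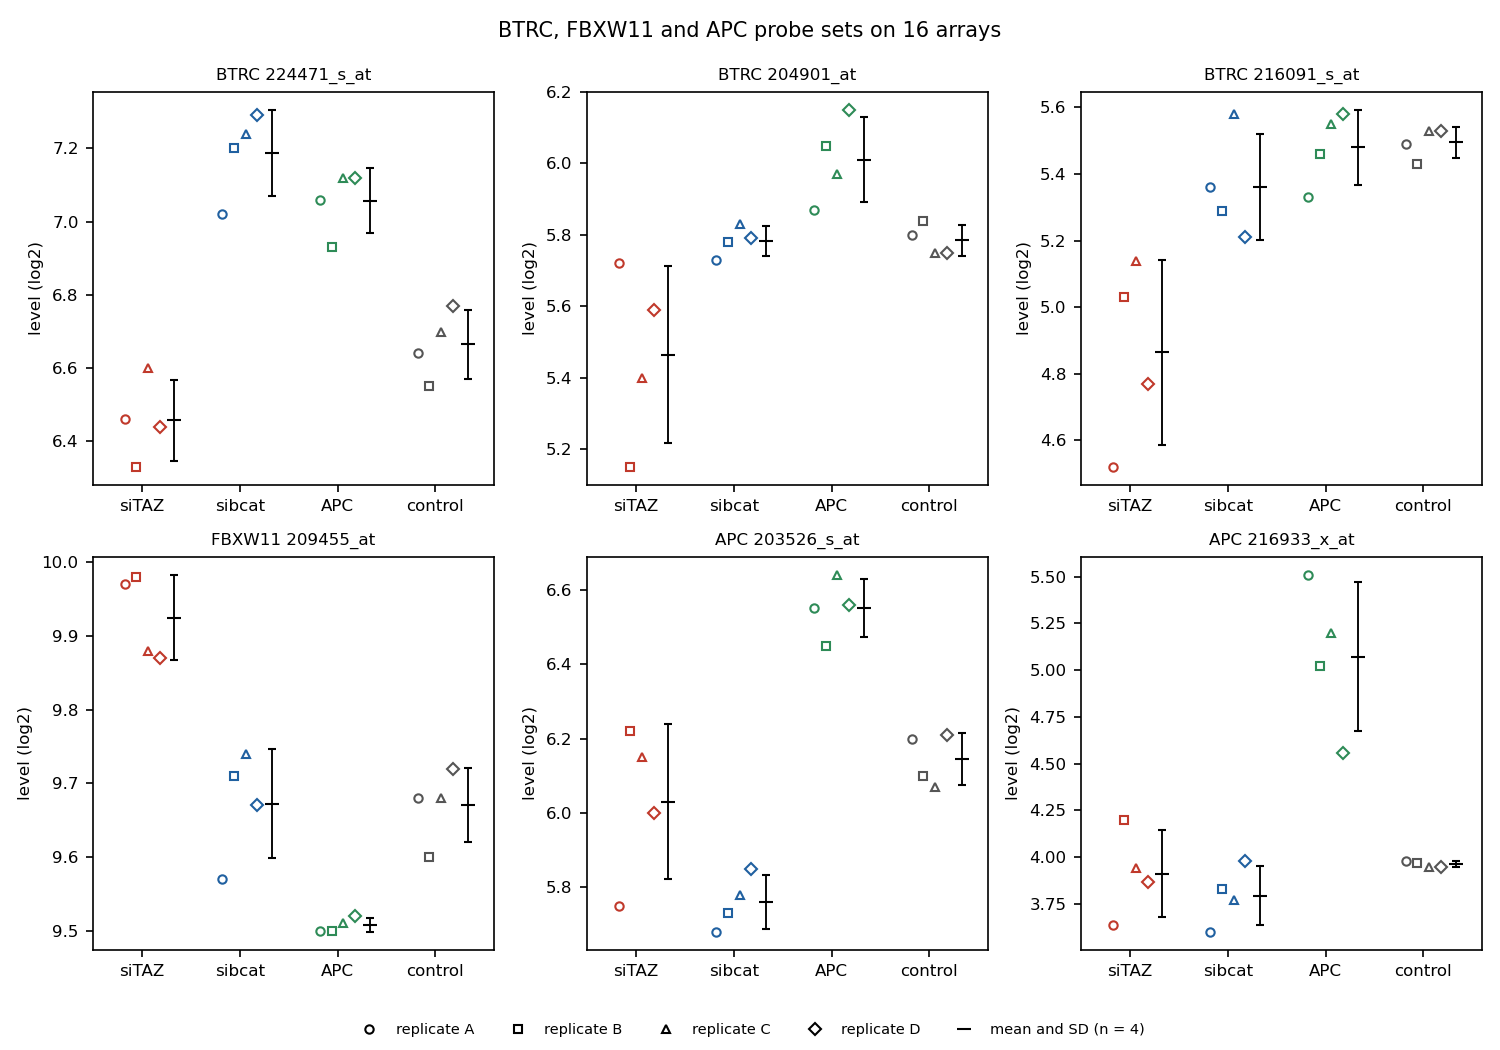
Log2 level on each array of 3 BTRC, 1 FBXW11 and 2 APC probe sets, by group, with marker shape for the replicate letter and a bar for the mean and SD of 4 arrays; each panel has its own level axis. BTRC 224471_s_at is high in sibcat and APC cells, BTRC 216091_s_at is low in siTAZ cells, and both APC probe sets are highest in APC cells.

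CSNK1A1, which encodes casein kinase 1 alpha and places the priming phosphate on beta-catenin, had the largest called decreases among the members in sibcat cells after CTNNB1, on 5 of its 13 probe sets. The brightest probe set, 213860_x_at, stood at 11.98, 12.01, 12.06 and 12.02 in siTAZ cells, 11.06, 11.06, 11.15 and 11.16 in sibcat cells, 11.95, 11.99, 11.99 and 12.10 in APC cells and 12.04, 12.02, 12.16 and 12.16 in control cells. The sibcat arrays lay apart below all others, and siTAZ and APC arrays overlapped control. The level fell by 0.99 in sibcat cells (SE 0.06, adjusted p = 7.84e-10), to 50.4% of control. The differences were -0.08 in siTAZ cells (adjusted p = 0.437) and -0.09 in APC cells (adjusted p = 0.324).

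A further 4 CSNK1A1 probe sets showed the same gap. 213086_s_at stood at 11.52, 11.53, 11.59 and 11.57 in siTAZ cells, 10.53, 10.55, 10.67 and 10.64 in sibcat cells, 11.36, 11.44, 11.55 and 11.48 in APC cells and 11.61, 11.70, 11.69 and 11.69 in control cells. The sibcat arrays lay apart below the rest, and all APC and siTAZ arrays were also below control. It fell by 1.07 in sibcat cells, to 47.5% of control (adjusted p = 2.55e-10), and in APC cells by 0.21 (adjusted p = 0.00977), with -0.12 in siTAZ cells (adjusted p = 0.178). 208865_at stood at 11.84, 11.91, 11.90 and 11.99 in siTAZ cells, 11.04, 11.13, 11.25 and 11.16 in sibcat cells, 11.77, 11.77, 11.82 and 11.83 in APC cells and 11.84, 11.77, 11.85 and 11.90 in control cells. Only the sibcat arrays left the common range, with a decrease of 0.69 on the log2 scale (adjusted p = 7.69e-08).

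206562_s_at varied more within groups, at 10.60, 11.16, 10.44 and 10.43 in siTAZ cells, 9.97, 9.77, 9.53 and 9.46 in sibcat cells, 10.68, 10.53, 10.34 and 10.28 in APC cells and 10.98, 11.05, 10.49 and 10.59 in control cells. The sibcat arrays were again below all others, with a fall of 1.09 (adjusted p = 7.12e-05), and APC arrays overlapped control at -0.32 (adjusted p = 0.197, or 0.0270 with the replicate block). 208867_s_at stood at 9.17, 9.47, 9.67 and 9.59 in siTAZ cells, 8.71, 8.59, 9.00 and 8.90 in sibcat cells, 9.64, 9.63, 9.92 and 9.94 in APC cells and 9.62, 9.50, 9.80 and 10.06 in control cells. It fell by 0.94 in sibcat cells, with an adjusted p of 2.95e-05, and its siTAZ difference was -0.27 (adjusted p = 0.193, or 0.0183 with the replicate block). The 5 calls held with replicates A and B only and with replicates C and D only, where the decreases ran from -0.72 to -1.15 and from -0.67 to -1.04 on the log2 scale.

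None of the remaining 8 CSNK1A1 probe sets was called lower in sibcat cells. 208866_at, named after its values were seen, stood at 9.65, 9.63, 9.71 and 9.78 in siTAZ cells, 8.94, 9.06, 9.26 and 9.22 in sibcat cells, 9.09, 9.19, 9.43 and 9.29 in APC cells and 9.30, 8.88, 9.31 and 9.43 in control cells. Every siTAZ array was above all others, a rise of 0.46 (SE 0.11, adjusted p = 0.0045), while sibcat cells overlapped control at -0.11 (adjusted p = 0.553). 1556007_s_at, also named after its values were seen, stood at 8.99, 9.05, 8.69 and 8.82 in siTAZ cells, 9.14, 8.88, 9.01 and 8.96 in sibcat cells, 8.57, 8.64, 8.51 and 8.49 in APC cells and 8.86, 8.72, 8.71 and 8.72 in control cells. Here the sibcat arrays were the ones above control, by 0.24 (adjusted p = 0.0319), and APC arrays lay below it at -0.20 (adjusted p = 0.0859, or 0.0486 with the replicate block). The sibcat call was lost without control replicate B, C or D or sibcat replicate A or C, with adjusted p between 0.0638 and 0.111. 1556006_s_at rose by 0.41 in sibcat cells (adjusted p = 0.0192), with overlapping groups, and lost the call without control replicate B, sibcat replicate C or sibcat replicate D (adjusted p between 0.0577 and 0.0725). 226920_at lay in the direction of the decrease, at -0.42 in sibcat cells (adjusted p = 0.112, or 0.0493 with the replicate block). With replicates C and D only it was -0.76 (adjusted p = 0.00654), but with A and B only it was -0.095 (adjusted p = 0.655). Its mean over all arrays, 4.99, was below the median level, where a signal may be largely background.

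Within arrays, 213086_s_at minus 1556007_s_at, a pair chosen after the values were seen, was 2.67 ± 0.20 in siTAZ cells, 1.60 ± 0.14 in sibcat cells, 2.91 ± 0.13 in APC cells and 2.92 ± 0.11 in control cells (SD, n = 4 each). The distance was smaller in all sibcat arrays than in any other array and overlapped control in siTAZ and APC cells. CSNK1A1 has a close intronless relative, CSNK1A1L, which no probe set here was annotated to, so a share of signal from related sequences was not tested.

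**Figure D4:**
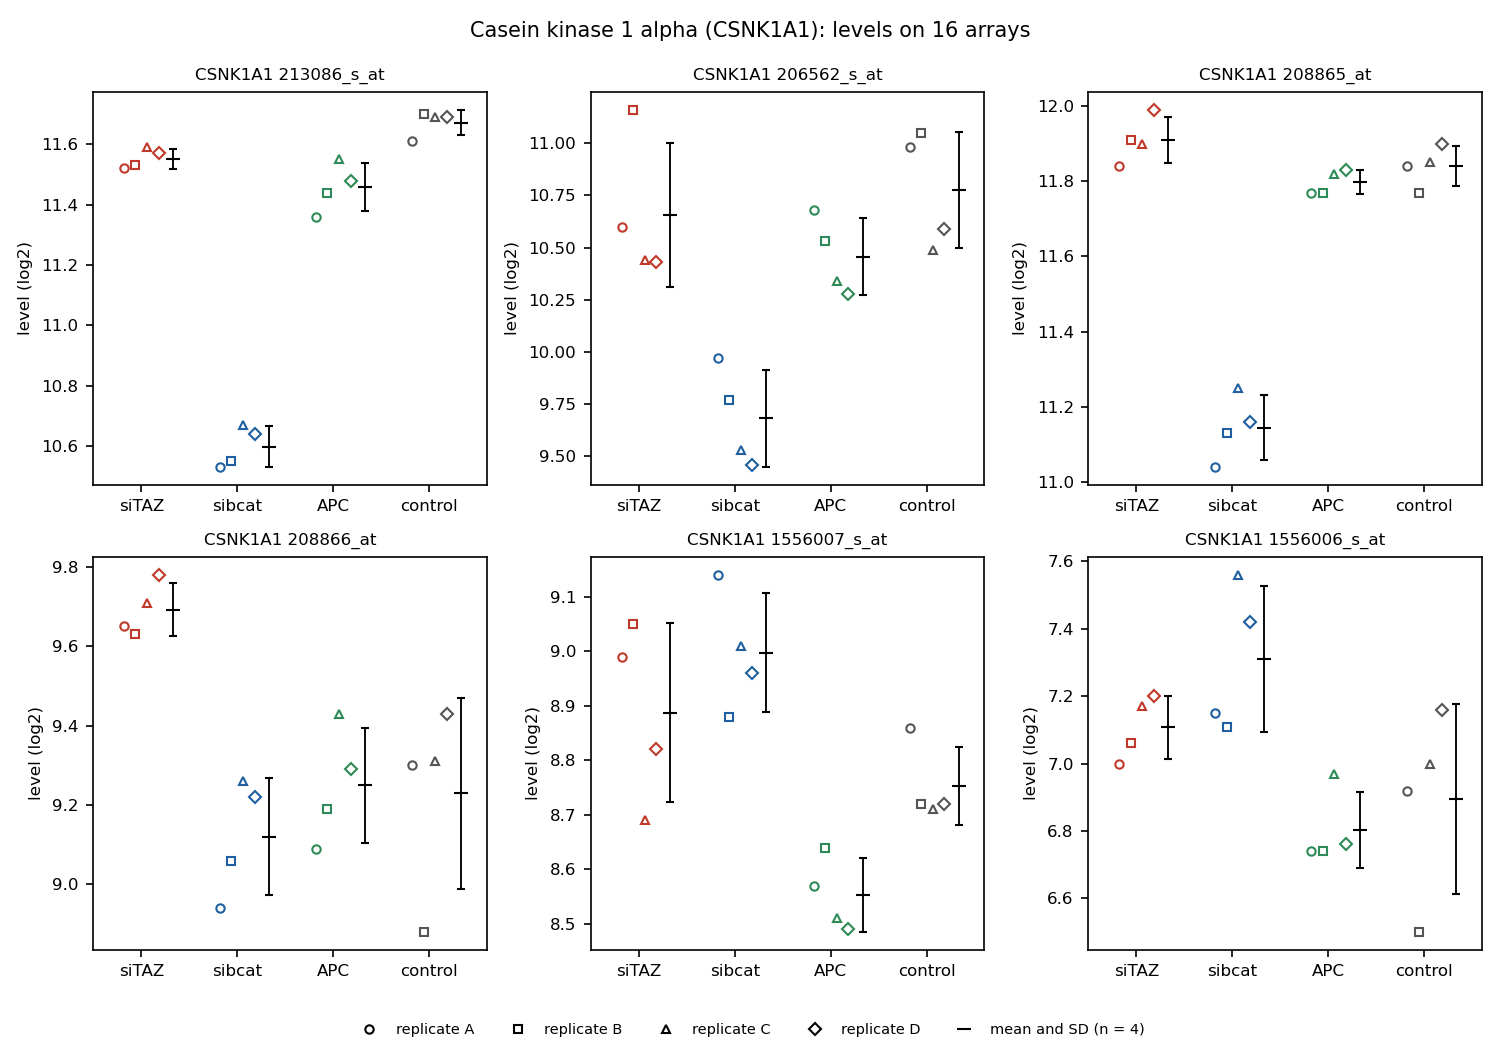
Log2 level on each array of 6 of the 13 CSNK1A1 probe sets, by group, with marker shape for the replicate letter and a bar for the mean and SD of 4 arrays; each panel has its own level axis. The sibcat arrays are lowest for 213086_s_at, 206562_s_at and 208865_at, the siTAZ arrays are highest for 208866_at, and the sibcat arrays lie above control for 1556007_s_at.

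The GSK3 kinases, which extend the phosphorylation that casein kinase 1 alpha begins, changed by small amounts. GSK3B on its brightest probe set, 226191_at, stood at 9.16, 9.26, 9.18 and 9.18 in siTAZ cells, 9.06, 9.05, 8.99 and 8.98 in sibcat cells, 9.18, 9.19, 9.16 and 9.06 in APC cells and 9.34, 9.23, 9.39 and 9.52 in control cells. All sibcat and APC arrays were below all control arrays, and siTAZ arrays overlapped control by replicate B alone. The level fell by 0.35 in sibcat cells (SE 0.06, adjusted p = 3.81e-04), to 78.5% of control, and by 0.22 in APC cells (adjusted p = 0.015), with -0.17 in siTAZ cells (adjusted p = 0.063). The siTAZ difference passed without control replicate B (-0.22, adjusted p = 0.0158). The call in APC cells was lost without control replicate D (-0.17, adjusted p = 0.06) or APC replicate D (-0.19, adjusted p = 0.0548).

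A second GSK3B probe set, 226183_at, fell by 0.27 in sibcat cells with an adjusted p of 0.0186 and overlapping groups, and had -0.20 in siTAZ cells (adjusted p = 0.0907) and -0.22 in APC cells (adjusted p = 0.0501). Its sibcat call was lost without control replicate D or sibcat replicate A or D, with adjusted p between 0.0542 and 0.0744. The other 3 GSK3B probe sets were called in no comparison. GSK3A, the second GSK3 gene, stood on 632_at at 7.25, 7.18, 7.26 and 7.19 in siTAZ cells, 7.01, 6.87, 6.92 and 7.15 in sibcat cells, 7.28, 7.40, 7.07 and 7.18 in APC cells and 6.98, 7.44, 7.09 and 6.98 in control cells. Control replicate B was the highest of the 16 arrays, each group overlapped control, and the differences from control were 0.10, -0.14 and 0.11 (adjusted p = 0.6, 0.39 and 0.494). Its other probe set, 202210_x_at, passed when control replicate B was left out, at 0.26, 0.29 and 0.38 (adjusted p = 0.029, 0.0117 and 0.00199), and otherwise gave 0.10, 0.13 and 0.22 (adjusted p = 0.692, 0.534 and 0.24).

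Of the F-box genes, BTRC was lower in siTAZ cells and higher in sibcat and APC cells, on different probe sets. The brightest, 224471_s_at, stood at 6.46, 6.33, 6.60 and 6.44 in siTAZ cells, 7.02, 7.20, 7.24 and 7.29 in sibcat cells, 7.06, 6.93, 7.12 and 7.12 in APC cells and 6.64, 6.55, 6.70 and 6.77 in control cells. Sibcat and APC arrays were all above control, and siTAZ arrays were low with 1 array inside the control range. It rose 1.44-fold in sibcat cells, by 0.52 in log2 (SE 0.08, adjusted p = 4.95e-05), and 1.31-fold in APC cells, by 0.39 in log2 (adjusted p = 8.90e-04). In siTAZ cells the difference was -0.21 (adjusted p = 0.0709, or 0.0238 with the replicate block), and it passed without control replicate B (-0.25, adjusted p = 0.0403) or siTAZ replicate C (-0.26, adjusted p = 0.0348). The siTAZ arrays were below sibcat by 0.73 (adjusted p = 9.62e-07) and below APC by 0.60 (adjusted p = 6.88e-06).

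BTRC 216091_s_at stood at 4.52, 5.03, 5.14 and 4.77 in siTAZ cells, 5.36, 5.29, 5.58 and 5.21 in sibcat cells, 5.33, 5.46, 5.55 and 5.58 in APC cells and 5.49, 5.43, 5.53 and 5.53 in control cells. Every siTAZ array was below every other array, a fall of 0.63 (SE 0.11, adjusted p = 4.84e-04) to 64.6% of control, with the siTAZ mean below 5.10. The sibcat and APC differences were -0.14 (adjusted p = 0.468) and -0.01 (adjusted p = 0.95), unlike the increases on 224471_s_at. 204901_at, named after its values were seen, stood at 5.72, 5.15, 5.40 and 5.59 in siTAZ cells, with all 4 below the control values of 5.80, 5.84, 5.75 and 5.75. It fell by 0.32 (adjusted p = 0.024), a call lost without control replicate A or B or siTAZ replicate B or C, with adjusted p between 0.0538 and 0.0822. The last 2 BTRC probe sets were below the median level and called nowhere.

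The distance from 224471_s_at to 216091_s_at within arrays, again a pair chosen after the values were seen, was 1.59 ± 0.28 in siTAZ cells, 1.83 ± 0.21 in sibcat cells, 1.58 ± 0.11 in APC cells and 1.17 ± 0.05 in control cells (SD, n = 4 each). It was larger than in any control array in all arrays of the other 3 groups.

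FBXW11 on 209455_at stood at 9.97, 9.98, 9.88 and 9.87 in siTAZ cells, 9.57, 9.71, 9.74 and 9.67 in sibcat cells, 9.50, 9.50, 9.51 and 9.52 in APC cells and 9.68, 9.60, 9.68 and 9.72 in control cells. All siTAZ arrays were the highest, all APC arrays the lowest, and sibcat arrays overlapped control. It rose by 0.25 in siTAZ cells (SE 0.06, adjusted p = 0.00259), or 1.19-fold, in the direction opposite to BTRC. With replicates A and B only the difference was 0.34 (adjusted p = 0.0646) and with C and D only 0.17 (adjusted p = 0.137). It fell by 0.16 in APC cells (adjusted p = 0.0417), a call lost when any of 8 single arrays was left out, among them each APC array, with adjusted p between 0.0531 and 0.109. siTAZ exceeded APC cells by 0.42 (adjusted p = 1.01e-05). The dimmer 209456_s_at was called in no comparison, at -0.40, -0.41 and -0.12 (adjusted p = 0.092, 0.0644 and 0.655), and its sibcat difference had an adjusted p of 0.0375 with the replicate block.

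The groups were also set against each other, in the same fit, so that the control arrays entered the estimate of the spread but not the differences. The shares of all probe sets given here are without direction and cover every level, while 29 of the 39 members were of at least the median level. The counts and their splits by direction therefore cannot be judged as many or few. Between siTAZ and sibcat cells 14 of the 39 were called, 11 higher and 3 lower in siTAZ cells, where 26.7% of all probe sets were called. The 11 higher were the 3 CTNNB1 probe sets, 6 for CSNK1A1, 1 for APC and 1 for FBXW11, and the 3 lower were all BTRC. Between APC and sibcat cells 14 were called, 10 higher and 4 lower in APC cells, where 31.5% of all probe sets were called. CSNK1A1 went both ways there: the 5 probe sets above were higher in APC cells by 0.65 to 0.98, while 1556007_s_at was lower by 0.44, 1556006_s_at by 0.51 and 240221_at by 0.26 (adjusted p = 0.0279). With arrays centred on the normalisation probe sets, 9 were higher and 10 lower in APC than in sibcat cells. Between siTAZ and APC cells 10 were called, 5 higher and 5 lower in siTAZ cells, where 32.4% of all probe sets were called. The 5 lower were 3 BTRC and 2 APC probe sets, and the 5 higher were 2 for CTNNB1, 2 for CSNK1A1 and 1 for FBXW11. The same centring gave 10 higher and 5 lower there. For neither comparison is the share of all probe sets called with that centring given. Over all 6 comparisons 17 of the 39 were never called, 8 of them below the median level, with differences between -0.42 and 0.37. They included AXIN1, both APC2 and both GSK3A probe sets. The share of all probe sets never called in the 6 comparisons is not given, so 17 cannot be judged as many or few.

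Genes that act on the complex without belonging to it were counted by their brightest probe set. Among all 19775 genes, 15.2% were called higher and 11.8% lower in siTAZ cells, 17.1% and 15.8% in sibcat cells, and 15.0% and 15.7% in APC cells. The 19775 include dim genes, while most genes in the lists below were of at least the median level. Among probe sets of that level 35.4% were called, in either direction, in siTAZ, 43.7% in sibcat and 38.7% in APC cells. The list counts were not tested against either share. The median over all genes was 0.01 in siTAZ, 0 in sibcat and 0.01 in APC cells. Of 9 genes for AXIN2 and the turnover of Axin, 3 were higher and 1 lower in siTAZ cells (median 0.10), 1 and 3 in sibcat cells (median -0.06), and 0 and 2 in APC cells (median -0.04). TNKS, a tankyrase that marks Axin for degradation, fell by 0.63 in siTAZ cells (adjusted p = 1.12e-05). SIAH2, a ubiquitin ligase, rose by 0.35 in siTAZ and by 0.29 in sibcat cells. SMURF2, another ubiquitin ligase, fell by 0.32 in sibcat and by 0.58 in APC cells.

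Of 9 genes for membrane recruitment and partners of APC, 1 was higher and 4 lower in siTAZ cells (median -0.12), 4 and 2 in sibcat cells (median 0.13), and 2 and 1 in APC cells (median 0.09). MAPRE1, whose product EB1 binds the end of full-length APC on microtubules, fell by 1.00 in siTAZ cells (adjusted p = 4.32e-10). ARHGEF4, an exchange factor stimulated by APC, rose by 0.69 in siTAZ and by 0.94 in sibcat cells. KIFAP3, a kinesin adaptor, rose by 0.46 in sibcat and by 0.49 in APC cells. CTBP1, a corepressor, fell by 0.63 in sibcat cells and rose by 0.33 in APC cells. The list thus held members that moved in opposite directions in the same cells.

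Of 10 genes that relay the Wnt signal or inhibit GSK3, 4 were higher and 1 lower in siTAZ cells (median 0.09), 4 and 0 in sibcat cells (median 0.05), and 3 and 3 in APC cells (median -0.12). DVL3, a Dishevelled protein that draws Axin to the receptor, rose by 0.39 in siTAZ and by 0.76 in sibcat cells (adjusted p = 6.02e-08). Its coreceptor partner LRP6 rose by 0.59 in sibcat cells, and LRP5 rose by 0.36 in sibcat and by 0.61 in APC cells. FRAT1, a GSK3-binding protein, rose by 0.43 in siTAZ cells and fell by 0.59 in APC cells.

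Of 7 other casein kinase genes, 2 were higher and 1 lower in siTAZ cells (median -0.01), 1 and 3 in sibcat cells (median -0.19), and 2 and 0 in APC cells (median -0.02). CSNK1E, casein kinase 1 epsilon, rose by 0.42 in siTAZ cells and fell by 0.69 in sibcat cells, and CSNK1D, casein kinase 1 delta, rose by 0.38 in sibcat and by 0.28 in APC cells. CSNK2A2, a catalytic subunit of casein kinase 2, fell by 0.73 in siTAZ cells. Of 13 subunits of the phosphatases PP2A and PP1, which can remove phosphate from the complex, 3 were higher and 4 lower in siTAZ cells (median -0.14), 2 and 6 in sibcat cells (median -0.03), and 3 and 4 in APC cells (median -0.03). The PP2A scaffold gene PPP2R1B rose by 1.03 in siTAZ cells and fell by 0.42 in APC cells. PPP1CC, a PP1 catalytic subunit, fell by 0.35 in siTAZ and by 1.05 in sibcat cells. PPP2R5E, a PP2A regulatory subunit, fell in all 3 groups, by 0.45, 0.79 and 0.53.

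Of 11 genes of the SCF ligase and its regulators, 3 were higher and 1 lower in siTAZ cells (median 0.08), 2 and 4 in sibcat cells (median -0.12), and 1 and 3 in APC cells (median 0.01). FBXW7, an F-box protein for other substrates, rose by 0.90 in siTAZ cells (adjusted p = 6.48e-05). CUL1, the cullin on which BTRC and FBXW11 sit, fell by 0.23 in sibcat and by 0.58 in APC cells. Of 11 relatives of beta-catenin and adherens junction partners, 1 was higher and 1 lower in siTAZ cells (median 0.10), 4 and 2 in sibcat cells (median 0.09), and 2 and 0 in APC cells (median 0.10). CTNNBIP1, which keeps beta-catenin from TCF factors, was higher by 1.57 in sibcat (adjusted p = 1.56e-11) and by 0.79 in APC cells. CDH1, E-cadherin, which holds beta-catenin at the membrane, fell by 1.13 in siTAZ cells (adjusted p = 1.67e-08).

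Genes with a pattern like that of the members were sought among 9093 genes by the root mean square distance between their 3 log2 differences from control. These were non-member genes with a mean of at least the median level and at least 1 of the 3 differences called. Nearest to CTNNB1 201533_at were ERICH2-DT, TNFRSF11B, H2AZ1, GZMB and FGF20, at distances of 0.27 to 0.35. All 5 were called lower in sibcat cells, by 2.68 to 3.24 on the log2 scale. Nearest to CSNK1A1 213860_x_at were UTP15, OSR2, HIRA, KIF5B and NMT1, at distances of 0.021 to 0.061, and all 5 were called in sibcat cells only, with differences of -0.90 to -1.01. The distance rests on 3 values that share their control arrays.

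The promoters of the members were read for the core motifs of the factors named in the design, in RefSeq windows from 250 bases before to 50 after a gene start (GRCh38.p14). Of the 10 genes, 9 had windows, 12 in all, and BTRC had none, so its promoter was not read. The TCF/LEF core CTTTGAT, or ATCAAAG on the other strand, was in 0 of the 12, and in 2.62% of all 35116 windows. The TEAD core GGAATG, or CATTCC on the other strand, was in 2 of the 12, and in 14.0% of all windows. The matching windows are shown because TEAD factors are the partners of TAZ, the siRNA target, with the matches in capitals, for APC at chr5:112737635-112737934 on the plus strand and for GSK3A at chr19:42242553-42242852 on the minus strand:
APC: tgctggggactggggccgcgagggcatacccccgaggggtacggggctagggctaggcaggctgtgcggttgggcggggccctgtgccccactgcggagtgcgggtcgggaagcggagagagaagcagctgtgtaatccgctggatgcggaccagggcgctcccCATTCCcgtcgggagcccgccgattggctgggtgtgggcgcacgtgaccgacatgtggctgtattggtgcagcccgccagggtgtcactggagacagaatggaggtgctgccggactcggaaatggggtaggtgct
GSK3A: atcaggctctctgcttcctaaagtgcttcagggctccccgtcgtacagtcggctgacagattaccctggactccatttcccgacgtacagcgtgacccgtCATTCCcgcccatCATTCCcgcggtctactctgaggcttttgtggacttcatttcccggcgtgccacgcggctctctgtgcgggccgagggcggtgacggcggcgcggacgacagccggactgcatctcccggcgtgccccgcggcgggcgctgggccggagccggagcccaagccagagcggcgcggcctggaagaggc
The APC window held 1 match and the GSK3A window 2. None of the 5 APC and 2 GSK3A probe sets was called in siTAZ cells. A match is only a run of letters, and no binding was measured.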

How the data were processed

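RNA from 16 SW480 samples, 4 in each of 4 groups, was measured on 1 array each. The authors deposited log2 levels per probe set, made with RMA per the submitters' processing notes. RMA subtracts background, brings the arrays to 1 distribution and combines probes; its version is not given in the sources used here. Base 2 was inferred from the range of the levels, 1.80 to 14.56. Levels are not counts, and precision is limited by how many arrays there were.

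Of the 54675 probe sets, 41097 were annotated to 1 gene, 1801 to several and 11777 to none. The 10 genes had 39 single-gene probe sets. All 54675 were fitted with limma 3.58.1 (R 4.3.3), with lmFit and eBayes at its defaults, 4 group means and no block, and p-values were adjusted by Benjamini-Hochberg within each of 6 comparisons. The text's adjusted p-values are from this fit. Exact permutation tests used scipy 1.17.1, and figures matplotlib 3.10.9. The code was tested on simulated data. A fit with the replicate letter as a block was also made. Deviations from group means correlated between same-letter arrays in all 24 pairs (r = 0.24 to 0.63, mean 0.40). They correlated as much between A and B and between C and D (0.17 to 0.56, mean 0.41). Between A or B and C or D they correlated negatively (-0.62 to -0.24). Deviations from a group mean cancel out within the group, so this negative sign follows from the positive correlations and is no separate observation. The labels do not give the origin of the split between A or B and C or D. Only 8 of the 16 arrays correlated best with arrays of their own letter. Whether the letters pair the samples is therefore not settled, and the block fit is given beside the main fit only.

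Per-array values are given for the brightest probe set of each gene, and for every other one called with a log2 difference of at least 0.5 from control where the brighter group reached the median level of 5.10. These were 17 probe sets, and those added later are named as such. Up to 3 called genes per list and comparison are named, plus WWTR1, YAP1 and AXIN2, from 11 lists of 100 genes, 92 of them analysed. The members and lists were chosen with earlier results of these data known. As RNA quality, the ACTB 3' minus 5' signal was 2.57 ± 0.39 in siTAZ, 2.30 ± 0.24 in sibcat, 2.08 ± 0.32 in APC and 2.05 ± 0.16 in control cells (SD, n = 4 each; exact permutation p = 0.0571, 0.171 and 0.886). The GAPDH 3' minus 5' signal was 0.505 ± 0.11 in siTAZ, 0.34 ± 0.06 in sibcat, 0.27 ± 0.04 in APC and 0.35 ± 0.07 in control cells (SD). Its exact permutation p was 0.0857, 0.829 and 0.171. These p-values are unadjusted, and after Benjamini-Hochberg adjustment over the 6 tests that for ACTB in siTAZ cells was 0.257. The part of the ACTB signal in the results was not tested beyond its use as a covariate, and that of GAPDH was not tested. Of 9 epithelial markers, 1 was higher and 2 lower in siTAZ, 2 and 1 in sibcat, and 0 and 5 in APC cells. Probe positions within transcripts were not analysed here.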

Additional observations from a re-analysis of the deposited data

Results flagged for a closer look

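In 9 of the 156 groups of 4 arrays tested, 1 array stood apart from the other 3 beyond the 95% critical value of Dixon's test for 4 samples; chance gives such an array in about 1 in 20 groups. For APC 203527_s_at, sibcat replicate B was low at 4.89, and the decrease in sibcat cells rests partly on it. For GSK3A 202210_x_at, control replicate B was high at 7.11, against 6.39 to 6.49 in the other control arrays. For GSK3B 242336_at, control replicate D was high at 2.97, at a dim level. For CSNK1A1 213086_s_at, control replicate A was low at 11.61, against 11.69 to 11.70, far less than the gap to sibcat cells. For CSNK1A1 1556007_s_at, control replicate A was high at 8.86, against 8.71 to 8.72. For CSNK1A1 1556006_s_at, APC replicate C was high at 6.97, against 6.74 to 6.76. For BTRC 222374_at, control replicate C was high at 4.89, against 4.63 to 4.67. For BTRC 1563620_at, APC replicate D was high at 2.68 and control replicate A was low at 2.28, both dim.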

How the results depend on the processing

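Of 234 differences (39 probe sets, 6 comparisons), 67 were called; 41 of these kept the call in all 28 settings run (27 for dim probe sets), 26 lost it in some, and 0 of the called ones reversed. Of the 167 not called, 49 passed in some setting; a change of sign where neither fit passed was not counted. The 5 falling CSNK1A1 probe sets and CTNNB1 201533_at and 1554411_at in sibcat cells kept their calls throughout. The share of all probe sets called is given for the main fit only. The member counts in the other settings below therefore stand without a background and cannot be read as a result about the members. The count called in siTAZ cells was 5, but 8 with the replicate block, 8 with array weights, 8 with probe sets of at least the median level only, 10 with a term for A or B versus C or D (chosen after seeing the data), 3 with replicates A and B only, and 1 at a log2 difference of at least 0.5. Leaving out single arrays gave 4 to 8, the highest without control replicate B. In sibcat cells the count was 16, but 8 with replicates A and B only and 8 at 0.5 or more; leaving out single arrays gave 13 to 17. In APC cells it was 8, but 3 with replicates A and B only, 5 at an adjusted p under 0.01 and 2 at 0.5 or more; leaving out single arrays gave 5 to 11, the lowest without control replicate D. With the replicate block, 12 differences gained the call and 0 lost it; those against control stand in the report, and the others were, in siTAZ cells, APC 203525_s_at against sibcat (0.27, adjusted p = 0.0275) and, against APC cells, CTNNB1 1554411_at (0.58, adjusted p = 4.02e-05), CSNK1A1 1556006_s_at (0.30, adjusted p = 0.0159) and CSNK1A1 208867_s_at (-0.31, adjusted p = 0.00535). Centring arrays on 55 normalisation probe sets shifted all differences in sibcat cells by 0.16, and the share of all probe sets it called is not given. It ended the sibcat calls of APC 203527_s_at (-0.15, adjusted p = 0.233) and GSK3B 226183_at (-0.11, adjusted p = 0.266) and the siTAZ call of BTRC 204901_at (-0.25, adjusted p = 0.0731). It added 6 higher calls in sibcat cells, between 0.16 and 0.37, for BTRC 1563620_at and 222374_at, FBXW11 209455_at, APC 215310_at and CSNK1A1 235464_at and 240221_at. With the ACTB 3' minus 5' signal as a covariate, CTNNB1 was higher in siTAZ cells by 0.40 on 201533_at (adjusted p = 0.0191) and by 0.63 on 1554411_at (adjusted p = 0.0402), and CSNK1A1 226920_at was -0.58 in sibcat cells (adjusted p = 0.0116). The calls lost with it against control were BTRC 204901_at in siTAZ (adjusted p = 0.0647) and, in sibcat cells, AMER1 1552882_a_at (adjusted p = 0.0512), CSNK1A1 1556007_s_at (adjusted p = 0.0758) and APC 203527_s_at (adjusted p = 0.0541). With replicates A and B only, calls lost against control included CTNNB1 223679_at in sibcat (-0.34), CTNNB1 201533_at in APC (-0.34), GSK3B 226191_at in sibcat (-0.23) and in APC (-0.10), and APC 203526_s_at in sibcat (-0.45) and in APC cells (0.35). The causes were not tested. Probe sets below the median level of 5.10 may be largely background.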
